A study of Mus musculus with 9 samples.

Results

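Tight junctions seal the paracellular gap between the epithelial cells of the gut, and their strands are built from claudins. Some claudins tighten the strand, and others form channels that let small ions and water pass between cells, so that the mixture of claudins sets how leaky and how charge-selective a stretch of gut is. That mixture changes along the intestine and along the crypt axis. Occludin and JAM-A also span the membrane at the junction, and the scaffold ZO-1 ties these proteins to the actin cytoskeleton.

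The mRNA levels of 10 such genes were examined, chosen by symbol from the 46095 genes of the deposited count table. They were the 7 claudins Cldn2, Cldn3, Cldn4, Cldn7, Cldn8, Cldn15 and Cldn23, together with Ocln (occludin), Tjp1 (ZO-1) and F11r (JAM-A). Cldn8 and Cldn15 are the regional claudins among them: in mice claudin-8 is known as a barrier-forming claudin of the distal colon, and claudin-15 as a sodium channel-forming claudin that is most abundant in the small intestine.

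RNA-seq had been performed on intestinal epithelial cells (IECs) of the colon, with 4 libraries from Smad4Vil-KO mice and 5 from Smad4Vil-KO;Setd2Vil-KO mice. Neither the labels nor the methods say that each library came from 1 mouse, so the p-values measure the spread between these libraries, which may in part be technical. In both groups Smad4, the shared transducer of TGF-β and BMP signalling, was floxed and deleted by Villin-Cre, which is active throughout the intestinal epithelium, and in the second group the H3K36 methyltransferase gene Setd2 was deleted as well, all on a C57BL/6J background. AOM, a colon carcinogen, had been given to all mice at 8 weeks of age (10 mg/kg), followed by 1 course of 2% DSS, an agent toxic to the colonic lining, and the cells were released with EDTA at 10 days. The comparison therefore asked what loss of Setd2 adds to loss of Smad4, and no mouse with intact Smad4 was measured in this series.

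The total count per library was 12487129 to 17120202, and values below are CPM, read counts scaled to the size of the library after TMM normalisation. Setd2 was lower in the Smad4Vil-KO;Setd2Vil-KO libraries, with 53.9 to 87.1 CPM against 99.2 to 120.1 CPM (log2 fold change -0.77, Benjamini-Hochberg adjusted p = 0.00756 in edgeR's quasi-likelihood test). The table holds 1 count per gene and does not separate the floxed exon. Smad4, floxed in both groups, averaged 64.2 ± 19.0 CPM in Smad4Vil-KO and 70.3 ± 34.4 CPM in Smad4Vil-KO;Setd2Vil-KO (SD over 4 and 5 libraries). Replicates 1, 2 and 5 of Smad4Vil-KO;Setd2Vil-KO carried 3857 to 4907 counts of Y-linked genes, whereas the other 6 libraries carried 0 to 28. The labels give no sex, so values from the libraries without Y-linked counts alone (4 against 2) are given below for each member.

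The claudins share a signature in the first extracellular loop, and it is shown here because it places Cldn8 and Cldn15 among their relatives. Each line is a 48-base stretch of the coding sequence in the GENCODE M21 transcripts, read 5′ to 3′, and the capitals mark the codons for glycine (or asparagine), leucine and tryptophan and for the cysteine pair.
Cldn8: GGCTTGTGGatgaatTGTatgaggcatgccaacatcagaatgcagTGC
Cldn15: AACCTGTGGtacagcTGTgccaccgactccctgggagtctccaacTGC
Cldn2: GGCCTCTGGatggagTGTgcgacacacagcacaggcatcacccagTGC
Cldn3: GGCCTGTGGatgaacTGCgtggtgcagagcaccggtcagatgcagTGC
Cldn4: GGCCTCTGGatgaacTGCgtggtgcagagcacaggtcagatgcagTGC
Cldn7: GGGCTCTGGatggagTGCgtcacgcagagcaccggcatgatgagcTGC
Cldn23: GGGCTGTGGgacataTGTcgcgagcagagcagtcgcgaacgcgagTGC

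The stretch began at base 145 of the coding sequence in Cldn8 and at base 139 in Cldn15. Among these 7, Cldn15 alone had an asparagine codon in place of the first glycine. Over the 21 pairs of claudins the coding sequences were 55.5% to 73.5% identical at aligned bases, with gaps left out. Cldn3 and Cldn4 were the closest pair by this measure. The longest run of bases that Cldn8 shared with any of the other 6 was 14. No 50-base stretch of any of the 7 claudin genes' transcripts occurred in another annotated gene.

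In the mm10 assembly (GRCm38), Cldn8 lies on the minus strand of chromosome 16 (chr16:88560828-88563183) and consists of 1 exon. Cldn3, Cldn4 and Cldn23 are also single-exon genes, which makes 4 of the 10 members against 7.29% of 21943 protein-coding genes in the same annotation. Cldn15 has 6 exons on the plus strand of chromosome 5 (chr5:136966616-136975858). Cldn2 is the member on the X chromosome (chrX:139800828-139811386). Cldn3 shares 40 exonic bases with the antisense gene Wbscr25, which had at most 6 counts in any library.

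All 10 members were expressed well enough to be tested. One of them, Cldn8, was lower in the Smad4Vil-KO;Setd2Vil-KO IECs, and the test called none of the members higher. Among all 14593 genes tested, 6.54% were called lower, 6.76% higher and 13.3% in either direction, at an adjusted p under 0.05 (edgeR quasi-likelihood test, Benjamini-Hochberg adjustment). DESeq2 and limma-voom also called Cldn8 and no other member, where DESeq2 called 19.1% of all genes (10% higher and 9.12% lower) and limma-voom 20.1% (9.61% higher and 10.5% lower). At an unadjusted p under 0.05, Cldn7 stood on the higher side and Cldn8 and Tjp1 on the lower, beside 15.3% of all genes in each direction. The median log2 fold change of the 10 members was -0.07, beside 0.00 over all genes tested, whose median absolute change was 0.23.

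Cldn8, the barrier claudin of the distal colon, stood at 186, 155, 177 and 216 CPM in Smad4Vil-KO replicates 1 to 4. In Smad4Vil-KO;Setd2Vil-KO replicates 1 to 5 it stood at 64.9, 77.5, 57.1, 64.7 and 81.4 CPM. Every Smad4Vil-KO;Setd2Vil-KO library lay below every Smad4Vil-KO library, a separation that 8.87% of the genes tested showed in this direction and 8.34% in the other. Its mean level was 184 ± 25.5 CPM in the first group (SD, n = 4) and 69.1 ± 10.1 CPM in the second (SD, n = 5), which is 0.376 of the former by the fitted fold. The log2 fold change was -1.41 (SE 0.12, 95% interval -1.68 to -1.14, adjusted p = 0.000108 by edgeR with Benjamini-Hochberg adjustment), and 1.34% of the genes tested had a log2 fold change as low or lower. In the libraries without Y-linked counts alone the log2 fold change was -1.59. Each library held at least 816 reads of the gene. In bulk IECs, fewer Cldn8-expressing cells and less Cldn8 mRNA per cell cannot be told apart.

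Cldn15, the other regional claudin, showed no such separation. It measured 181, 175, 161 and 141 CPM in Smad4Vil-KO replicates 1 to 4. In Smad4Vil-KO;Setd2Vil-KO replicates 1 to 5 it measured 93.6, 118, 190.4, 163 and 216 CPM. Replicates 1 and 2 thus lay below every Smad4Vil-KO library, while replicates 3 and 5 lay above them all. The means were 164 ± 17.8 CPM and 156 ± 50.4 CPM (SD, n = 4 and 5), so that the coefficient of variation was 10.9% in Smad4Vil-KO and 32.3% in Smad4Vil-KO;Setd2Vil-KO. The log2 fold change was -0.07, with a 95% interval of -0.54 to 0.39 (adjusted p = 0.840 by edgeR). Its sign turned without replicate 1 (0.06) or replicate 2 (0.01) of Smad4Vil-KO;Setd2Vil-KO, and in the libraries without Y-linked counts it was 0.11.

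**Figure D1:**
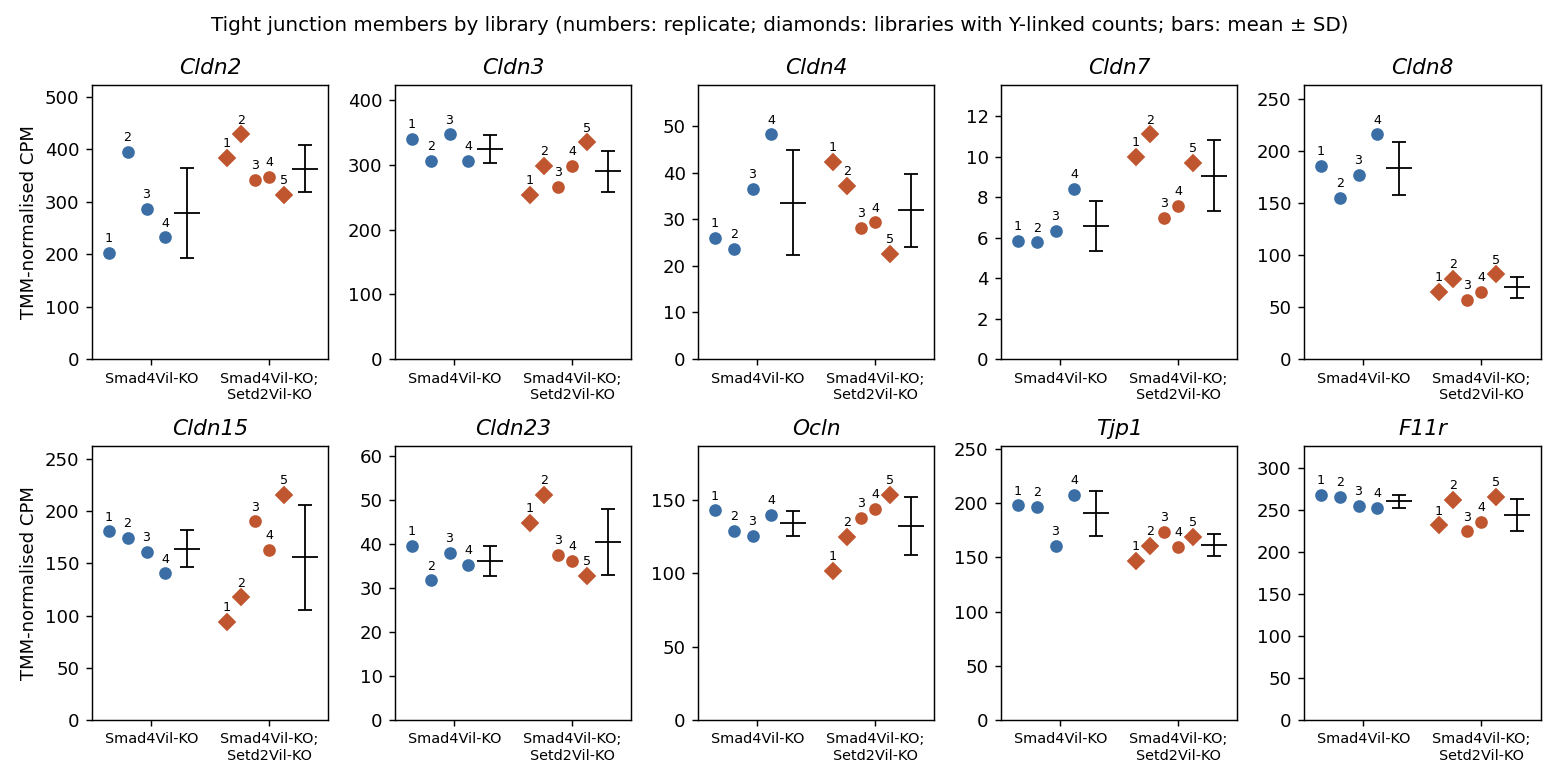
TMM-normalised CPM (vertical axes, each from 0) of the 10 members in each library, grouped by genotype, with the replicate number above each point, diamonds for libraries with Y-linked counts and bars for mean ± SD (n = 4 and 5). The Cldn8 libraries of the 2 genotypes do not overlap, whereas Cldn15 spreads from 93.6 to 216 CPM within Smad4Vil-KO;Setd2Vil-KO.

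The position of these claudins along the gut was set beside lists of regional genes in the same libraries. Of 10 genes of the distal colon, 3 were called lower and none higher: Hoxb13 (log2 fold change -0.78), Hoxd12 (-1.31) and Hoxd13 (-0.95), homeobox genes of the hindgut end. Hoxd13 passed in every leave-one-out fit, whereas Hoxb13 did not pass without Smad4Vil-KO replicate 1, 3 or 4 or Smad4Vil-KO;Setd2Vil-KO replicate 2 or 4 (adjusted p up to 0.0806 in edgeR), and Hoxd12 passed a leave-one-out fit only without Smad4Vil-KO;Setd2Vil-KO replicate 5 (otherwise up to 0.137). At an unadjusted p under 0.05 there were 6 lower of the 10, and DESeq2 called 6 and limma-voom 4, with 0 higher by each, beside 15.3% of all genes lower at an unadjusted p and 6.54%, 9.12% and 10.5% called lower by edgeR, DESeq2 and limma-voom. With 1 library left out, 1 to 5 of the 10 were called lower. Those fits called 392 to 1316 genes lower among the 14352 to 14916 tested. The summed level of that list was 336 to 526 CPM in Smad4Vil-KO and 209 to 352 CPM in Smad4Vil-KO;Setd2Vil-KO. Of 16 genes of small intestinal enterocytes that were tested, edgeR called 12 higher, DESeq2 13 and limma-voom 11 (15 at an unadjusted p under 0.05 in edgeR), with 0 lower by each, beside 15.3% of all genes higher at an unadjusted p and 6.76%, 10% and 9.61% called higher by edgeR, DESeq2 and limma-voom. Some of these genes had few or no reads in Smad4Vil-KO and entered the test through the libraries where they were high, so this count is not taken as support. Of the 12 with at least 10 counts in every library, 8 were called higher, in a fit that called 815 of 12751 genes higher. With 1 library left out, 8 to 14 of the 15 or 16 genes then tested were called. Those fits called 455 to 1380 genes higher among the 14352 to 14916 tested. The summed level of the list was 629 to 710 CPM in Smad4Vil-KO and 897 to 2172 CPM in Smad4Vil-KO;Setd2Vil-KO. In Smad4Vil-KO;Setd2Vil-KO replicates 1 to 5 that sum was 1678, 2172, 1300, 1948 and 897 CPM, so that replicate 5, with the highest Cldn15, had the lowest sum. The part of these regional genes in the Cldn8 result was not tested.

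Epithelial markers were abundant in all 9 libraries. None of 9 pan-epithelial genes, Epcam, Vil1 and keratins among them, passed the edgeR test, and together they held 12470 to 15220 CPM in every library. Krt20, higher in Smad4Vil-KO;Setd2Vil-KO, was the 1 at an unadjusted p under 0.05 and the 1 called by DESeq2 and limma-voom. Vil1 stood at 905 to 1029 CPM in Smad4Vil-KO and 1040 to 1246 CPM in Smad4Vil-KO;Setd2Vil-KO, without overlap, as did 8.34% of all genes tested in this direction. The 12 leukocyte genes summed to 72.0 to 129.8 CPM in Smad4Vil-KO and 48.1 to 146 CPM in Smad4Vil-KO;Setd2Vil-KO, with 0 called by any of the 3 tools and 0 at an unadjusted p under 0.05. Fibroblast and muscle genes summed to 21.7 to 39.0 and 30.2 to 68.7 CPM. Of these 10 genes 5 were tested. Among them edgeR called 0, although 2 were higher at an unadjusted p under 0.05, and DESeq2 called 1 and limma-voom 0. The 8 endothelial genes summed to between 7.83 and 12.2 CPM, with 0 of the 3 tested called by any tool and 0 at an unadjusted p under 0.05. Of all genes tested, edgeR called 13.3%, DESeq2 19.1% and limma-voom 20.1% in either direction. At an unadjusted p under 0.05 in edgeR, 15.3% of all genes stood on each side. With so few genes per list, the marker counts are not read as a difference from these shares.

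Cldn2, the cation and water channel claudin of leaky epithelia and of the crypt base, was measured at 202, 395, 286 and 232 CPM in Smad4Vil-KO replicates 1 to 4. The Smad4Vil-KO;Setd2Vil-KO replicates 1 to 5 had 384, 428, 341, 346 and 312 CPM. Apart from Smad4Vil-KO replicate 2, all Smad4Vil-KO libraries lay below all Smad4Vil-KO;Setd2Vil-KO libraries. The log2 fold change was 0.38 (SE 0.18, 95% interval -0.01 to 0.77) and did not pass (adjusted p = 0.177 by edgeR). Without Smad4Vil-KO replicate 2 it was 0.59 with an adjusted p of 0.0329, so that this 1 library decided the call. In the libraries without Y-linked counts the log2 fold change was 0.31.

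The sealing claudins differed less. Cldn3, which restricts the passage of ions, stood at 306 to 347 CPM in Smad4Vil-KO and at 253 to 335 CPM in Smad4Vil-KO;Setd2Vil-KO (log2 fold change -0.16, 95% interval -0.37 to 0.05, adjusted p = 0.266 by edgeR). Cldn4, its closest relative in sequence, ranged from 23.7 to 48.3 CPM and from 22.6 to 42.3 CPM, and its log2 fold change of -0.07 had an interval of -0.58 to 0.44. It turned to 0.15 without Smad4Vil-KO replicate 4 and to 0.04 without Smad4Vil-KO;Setd2Vil-KO replicate 5. Cldn23, a claudin of differentiated surface colonocytes, stood at 36.2 ± 3.45 CPM and 40.5 ± 7.42 CPM (log2 fold change 0.16, 95% interval -0.13 to 0.46, adjusted p = 0.431 by edgeR). In the libraries without Y-linked counts the log2 fold changes were -0.20 for Cldn3, -0.22 for Cldn4 and 0.03 for Cldn23. Without Smad4Vil-KO;Setd2Vil-KO replicate 2 the change of Cldn23 was 0.07, and without Smad4Vil-KO replicate 2 it was 0.10.

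Cldn7, which also sits along the lateral membrane and binds EpCAM, had the fewest reads of the members, 91 to 156 per library. Its levels were 5.84, 5.76, 6.33 and 8.42 CPM in Smad4Vil-KO replicates 1 to 4, and 9.999, 11.1, 6.99, 7.55 and 9.69 CPM in Smad4Vil-KO;Setd2Vil-KO replicates 1 to 5. The groups overlapped only through Smad4Vil-KO replicate 4 and Smad4Vil-KO;Setd2Vil-KO replicates 3 and 4. The log2 fold change was 0.46 (SE 0.19, 95% interval 0.05 to 0.88) and did not pass, with an adjusted p of 0.124 in edgeR. The 3 Smad4Vil-KO;Setd2Vil-KO libraries with the higher values were those with Y-linked counts, and in the other 6 libraries the log2 fold change was 0.15.

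Of the members outside the claudin family, Tjp1, whose product ZO-1 anchors claudins to actin, was the closest to the threshold. It stood at 198, 197, 161 and 208 CPM in Smad4Vil-KO and at 147, 160.5, 174, 159.5 and 169 CPM in Smad4Vil-KO;Setd2Vil-KO. The log2 fold change was -0.24 (SE 0.09, 95% interval -0.43 to -0.04, adjusted p = 0.101 by edgeR). Smad4Vil-KO replicate 3 lay within the range of the other genotype. Without it the change was -0.31, still short of the threshold at an adjusted p of 0.0553.

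Neither Ocln nor F11r passed the test. Ocln, a tetraspan regulator of junction dynamics, averaged 134 ± 8.41 CPM in Smad4Vil-KO and 132 ± 20.0 CPM in Smad4Vil-KO;Setd2Vil-KO, with an interval of its log2 fold change from -0.27 to 0.23. In Smad4Vil-KO;Setd2Vil-KO its lowest library was replicate 1 (102 CPM) and its highest was replicate 5 (153 CPM), as for Cldn15. F11r, an immunoglobulin-like adhesion protein of the junction, measured 261 ± 7.67 CPM and 244 ± 18.8 CPM, with an interval from -0.26 to 0.08 (log2 fold change -0.09, adjusted p = 0.434 by edgeR). The difference in F11r exceeded the SD of the Smad4Vil-KO libraries and not that of the Smad4Vil-KO;Setd2Vil-KO libraries. Without Smad4Vil-KO;Setd2Vil-KO replicate 3 the log2 fold change of F11r was -0.06. In the libraries without Y-linked counts the log2 fold changes were 0.07 for Ocln, -0.17 for F11r and -0.19 for Tjp1.

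**Figure D2:**
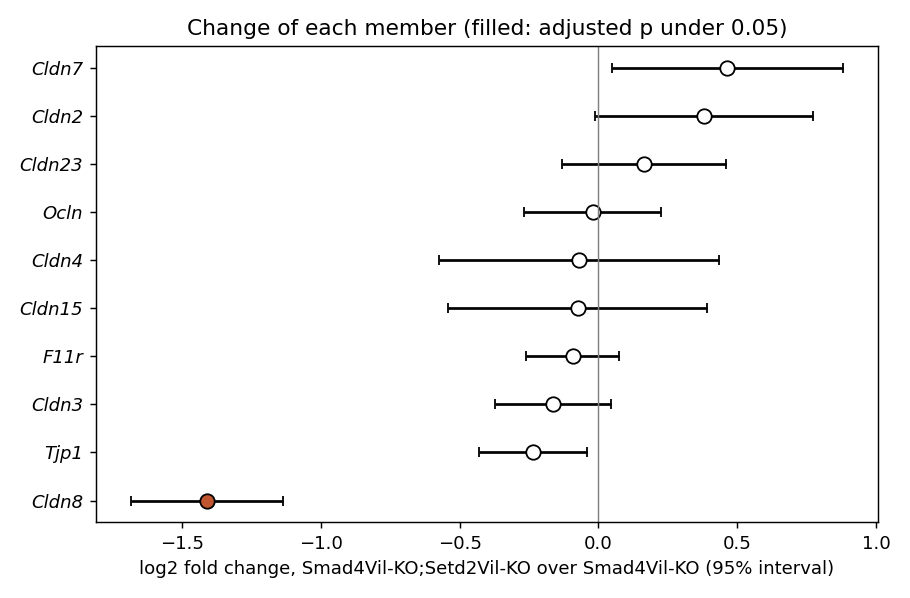
Log2 fold change of each member (horizontal axis, Smad4Vil-KO;Setd2Vil-KO over Smad4Vil-KO) with its 95% interval from the edgeR fit. The filled point passed an adjusted p under 0.05. Cldn8 at -1.41 is the filled point, and the points of the other 9 members lie between -0.24 and 0.46.

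To compare one gene with another, levels were divided by exon length and are given as CPM per kb. In Smad4Vil-KO the order was led by Cldn3 (258 ± 17.3 CPM per kb), followed by F11r (97.8 ± 2.88), Cldn2 (83.8 ± 25.6), Cldn8 (78.0 ± 10.8) and Cldn15 (77.3 ± 8.40). The ranges of Cldn2, Cldn8 and Cldn15 overlapped, as did those of Cldn2 and F11r, whereas Cldn3 stood above all of them in each library. Ocln (31.8), Tjp1 (24.4), Cldn23 (19.6) and Cldn4 (18.5) came next, of which the last 3 overlapped, and Cldn7 was lowest at 3.38 CPM per kb. In Smad4Vil-KO;Setd2Vil-KO, Cldn8 stood at 29.3 ± 4.27 CPM per kb, within the range of Ocln (31.3 ± 4.73) and below the lowest library of Cldn15 (mean 73.5 ± 23.7). Cldn2 (109.0 ± 13.4) and F11r (91.7 ± 7.07) overlapped below Cldn3 (230.4 ± 25.4).

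The make-up of the claudin mRNA pool was computed from these per-length levels as each gene's share of the 7 claudins. The share of Cldn8 was 14.8%, 12.1%, 13.5% and 17.6% in Smad4Vil-KO replicates 1 to 4. It was 6.25%, 6.48%, 5.19%, 5.66% and 6.51% in Smad4Vil-KO;Setd2Vil-KO replicates 1 to 5, below every Smad4Vil-KO library. Cldn3 held nearly the same share in both, 47.9% ± 2.66 and 47.3% ± 2.10 (SD, n = 4 and 5). Cldn2 held 15.5% ± 4.56 and 22.5% ± 3.39, with overlapping ranges, and Cldn15 14.4% ± 1.47 and 15.0% ± 4.39. Shares sum to a whole, so a lower share of 1 claudin raises those of the others.

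**Figure D3:**
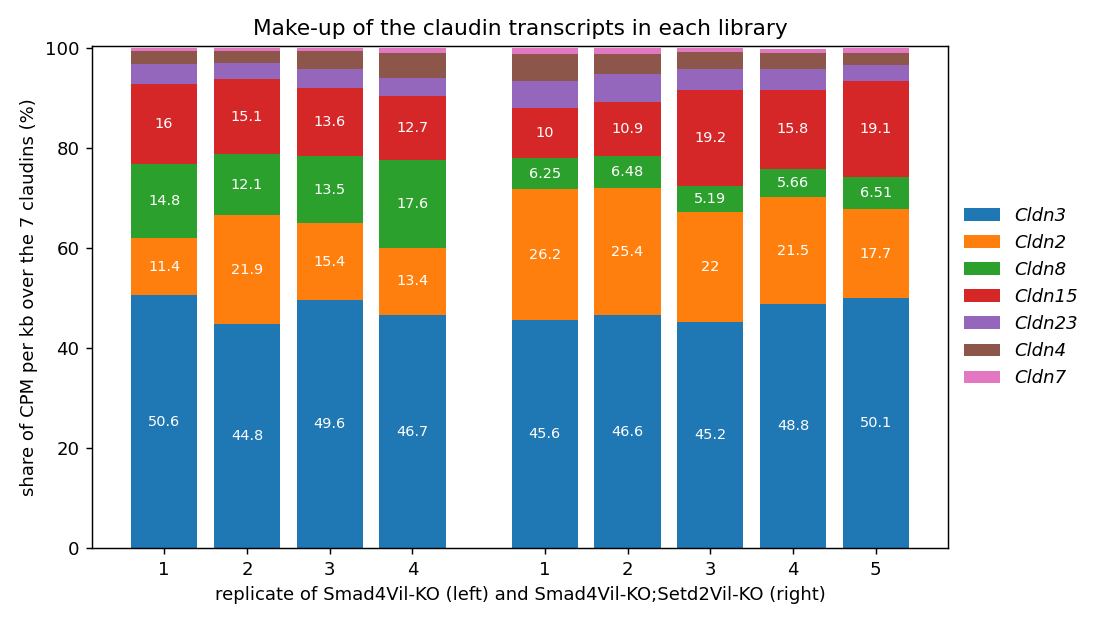
Share of each claudin (vertical axis, % of the summed CPM per kb of the 7 claudins) in each library, with the 4 Smad4Vil-KO replicates on the left and the 5 Smad4Vil-KO;Setd2Vil-KO replicates on the right. The Cldn8 segment is 12.1% to 17.6% on the left and 5.19% to 6.51% on the right, while Cldn3 remains the largest segment in each bar.

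Ratios of read counts within a library, which do not depend on the scaling between libraries, gave the same picture for Cldn8. Reads of Cldn8 per read of Cldn3 were 0.506 to 0.706 in Smad4Vil-KO and 0.215 to 0.260 in Smad4Vil-KO;Setd2Vil-KO. Reads of Cldn2 per read of Cldn8 were 1.08, 2.55, 1.61 and 1.07 in Smad4Vil-KO, and 5.91, 5.53, 5.98, 5.36 and 3.84 in Smad4Vil-KO;Setd2Vil-KO. The channel-forming Cldn2 thus stood higher relative to the barrier-forming Cldn8 in each Smad4Vil-KO;Setd2Vil-KO library. For the regional pair, reads of Cldn8 per read of Cldn15 were 0.887 to 1.54 and 0.300 to 0.693, again without overlap.

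The genes with profiles most like those of the regional claudins over the 9 libraries were sought by the root mean square difference of their log2 CPM, each centred on its own mean. For Cldn8 they were Npas2 (0.173), Glb1 (0.186), Rhbdl2 (0.203), Ano8 (0.236) and Cyp2d34 (0.244). They were chosen for their likeness over these same libraries, so that the separation of the genotypes that they share with Cldn8 follows from the choice. Their log2 fold changes included -1.43 for Npas2, a circadian transcription factor, and -1.22 for Glb1, the lysosomal β-galactosidase. For Cldn15 they included Abcb6 (0.095), Hibadh (0.108), Galm (0.114) and 1810037I17Rik (0.123). In Abcb6, a porphyrin transporter, the 9 values ran from 31.5 CPM in Smad4Vil-KO;Setd2Vil-KO replicate 1 to 62.5 CPM in its replicate 5. These are the same end points as in Cldn15, which again follows from the choice.

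The rest of the junction was read from 5 lists that held 90 genes of the table, of which 69 were tested. Of these, 3 were called higher and 2 lower, or 7.25%, beside 13.3% of all genes tested. By DESeq2, 7 were higher and 8 lower (21.7%, beside 19.1% of all genes), and by limma-voom 8 higher and 9 lower (24.6%, beside 20.1%), so that the lists' share lay below that of all genes with edgeR and above it with the other tools. The list of other scaffold and plaque genes held 4 of the 5 calls among its 28 genes, 2 in each direction, with a median log2 fold change of -0.01 (7 lower and 3 higher at an unadjusted p under 0.05, beside 15.3% of all genes in each direction, 4 lower and 3 higher by DESeq2, 6 lower and 4 higher by limma-voom). The list of regulators of contraction held the fifth among its 12, with a median of -0.03 (2 higher and 1 lower at an unadjusted p under 0.05, 2 higher by DESeq2 and 1 higher by limma-voom). None of 18 adherens junction and desmosome genes (median -0.03), 8 other membrane proteins (0.03) and 3 tested claudins (-0.44) was called by edgeR. At an unadjusted p under 0.05 there were 3 higher and 1 lower of the 18, 1 lower of the 8 and 2 lower of the 3, again beside 15.3% of all genes in each direction. DESeq2 called 2 higher and 1 lower, 1 lower and 2 lower in these lists, and limma-voom 3 higher and 1 lower, 1 lower and 1 lower.

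Mpdz, which encodes the multi-PDZ scaffold MUPP1 that binds claudin tails, was the scaffold with the largest change among the 28. It stood at 0.513, 0.773, 0.798 and 0.556 CPM in Smad4Vil-KO replicates 1 to 4, from 7 to 13 reads per library. In Smad4Vil-KO;Setd2Vil-KO replicates 1 to 5 it stood at 4.55, 3.63, 6.64, 4.96 and 7.37 CPM, from 51 to 95 reads. The groups did not overlap (8.08-fold, log2 fold change 3.01, SE 0.30, adjusted p = 0.000245 by edgeR with Benjamini-Hochberg adjustment), although the level remained low in both. With so few reads in Smad4Vil-KO the gene entered the test mainly through the other group, and it was not tested when at least 10 counts were required in every library.

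The other called genes changed less. Rock2, a kinase that drives actomyosin contraction, rose from 217 ± 18.1 to 287 ± 13.6 CPM (SD, n = 4 and 5; log2 fold change 0.40, adjusted p = 0.00939 by edgeR). Sympk, a plaque protein that also belongs to the mRNA 3′-end processing machinery, fell from 122 to 93.3 CPM (-0.39, adjusted p = 0.00627 by edgeR). Amotl1, of the angiomotin family, rose from 12.6 to 19.8 CPM (0.65, adjusted p = 0.0270 by edgeR), a call lost without any 1 of Smad4Vil-KO replicates 1, 2 and 3 (adjusted p up to 0.0877) or Smad4Vil-KO;Setd2Vil-KO replicate 3 (0.0503), in the libraries without Y-linked counts (0.0569) and with a term for such counts (0.116). Tjap1, a junction-associated protein, fell from 21.4 to 16.5 CPM (-0.38, adjusted p = 0.0275 by edgeR), and that call was lost when any single Smad4Vil-KO library (adjusted p up to 0.0859) or Smad4Vil-KO;Setd2Vil-KO replicate 3 (0.0569) or 4 (0.0555) was left out, with no filter on low counts (0.0559) and with a term for Y-linked counts (0.0582).

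Most of the remaining claudins were silent or nearly so. Of 20 others in the table, 7 had no read in any library (Cldn5, Cldn13, Cldn16, Cldn19, Cldn22, Cldn24 and Cldn34a), and 3 passed the filter on low counts. Cldn12, a widely expressed claudin, and Cldn14, another barrier claudin, are named after their values were seen. Cldn12 stood at 97.4 to 108 CPM in Smad4Vil-KO and 78.6 to 95.2 CPM in Smad4Vil-KO;Setd2Vil-KO (log2 fold change -0.24, adjusted p = 0.0590 by edgeR). Cldn14 stood at 2.08 to 4.21 and 1.03 to 1.86 CPM (-0.98, adjusted p = 0.0619 by edgeR). Neither overlapped between the genotypes, which held in this direction for 8.87% of all genes tested. Neither passed in edgeR, while DESeq2 called both (adjusted p = 0.0283 for Cldn12 and 0.0386 for Cldn14) and limma-voom called Cldn12 (0.0456). On simulated counts DESeq2 made 36 false calls, beside 6 by edgeR and 7 by limma-voom.

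**Figure D4:**
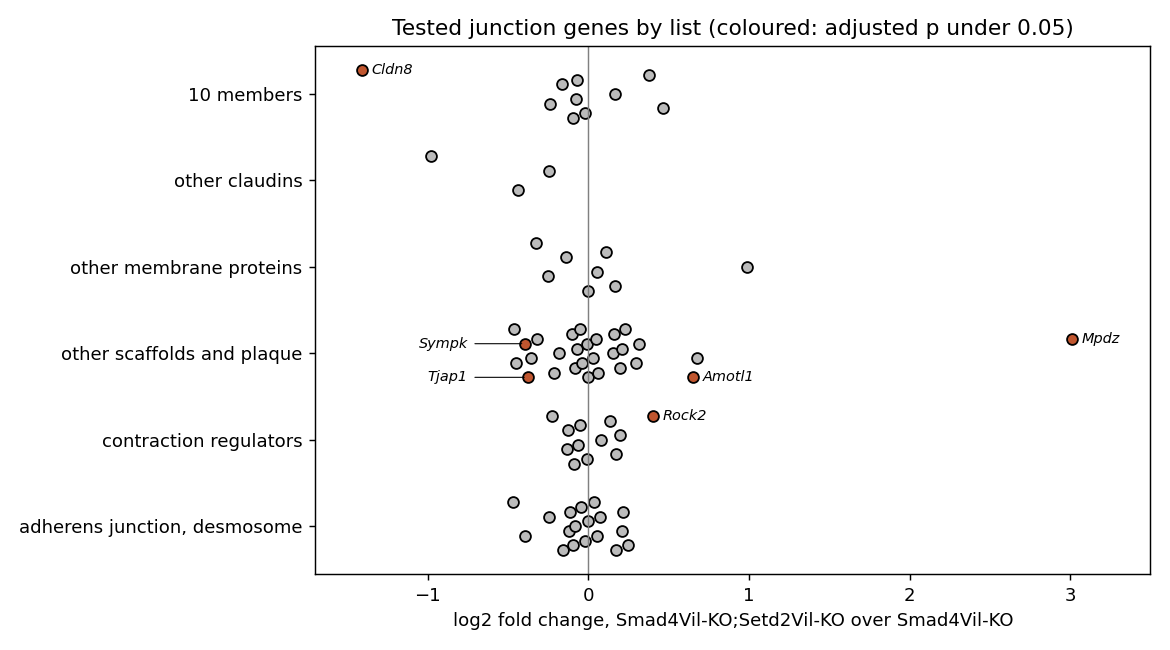
Log2 fold change (horizontal axis, Smad4Vil-KO;Setd2Vil-KO over Smad4Vil-KO) of each tested junction gene, 1 row per list, with genes past an adjusted p under 0.05 coloured and named. Cldn8 at -1.41 and Mpdz at 3.01 lie farthest from 0, and the points of the other called genes lie between -0.39 and 0.65.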

How the data were processed

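The authors deposited whole-number read counts per gene symbol for 9 libraries, without normalization. Their processing notes name HISAT2 2.0 and mm10, and the counting program, annotation and strand setting are not given in the sources used here. Genotypes and replicate numbers came from the sample labels. Genes were kept with filterByExpr (14593 genes), normalized with TMM and tested two-sided with the quasi-likelihood test of edgeR 4.0.16 in R 4.3.3, over all 9 libraries and without covariates, with Benjamini-Hochberg adjustment and a threshold of 0.05. DESeq2 1.42.0 and limma 3.58.1 (voom) were alternatives, beside those given in the closing section. On simulated counts edgeR recovered 154 of 200 changed genes among 14387, with 6 false calls. Every pair of replicates within a genotype differed far more than read sampling allows (chi-square per gene 9.92 or more), and all 9 libraries were counted. Lengths, coordinates and sequences came from GENCODE M21. Summed CPM of a list covers all its genes in the table. The members, the lists and the tests were chosen with earlier results of these data known. Named were all members, the called genes of the 5 junction lists, the 5 closest profiles (mean of at least 10 CPM) for Cldn8 and Cldn15, Setd2 and Smad4; called genes of the regional lists, named examples of markers and other claudins were chosen after their values were seen. Proteins and promoters were not used here, and 1 of the closest profiles and a colonocyte list are not reported here.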

Additional observations from a re-analysis of the deposited data

How the results depend on the processing

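Cldn8 remained lower and past the threshold in all 18 alternatives, with log2 fold changes from -1.59 to -1.33 and adjusted p from 5.136e-22 to 0.00149. Leaving out 1 library at a time gave -1.49 to -1.33, and 1 member called lower each time. Members called higher were 0 to 1 when 1 library was left out, the 1 being Cldn2 without Smad4Vil-KO replicate 2, and 0 in the other 9 alternatives. Cldn15 ranged from -0.2068 to 0.0648 with 1 library left out, and turned positive without Smad4Vil-KO;Setd2Vil-KO replicate 1 (0.0648) or 2 (0.0139), under limma-voom (0.0082), with a term for Y-linked counts (0.105) and in the libraries without such counts (0.1096). Ocln turned positive under limma-voom (0.0508), by library size alone (0.0066), without Smad4Vil-KO replicate 1 (0.0151), without Smad4Vil-KO;Setd2Vil-KO replicate 1 (0.0625) or 2 (0.0028), with the Y-linked term (0.07) and without the Y-linked libraries (0.0745), and ranged from -0.067 to 0.0625 with 1 library left out. Cldn4 turned without Smad4Vil-KO replicate 4 (0.1489), without Smad4Vil-KO;Setd2Vil-KO replicate 5 (0.0438) and with the replicate block (0.0674), and ranged from -0.2107 to 0.1489 with 1 library left out. None of these passed the threshold on either side, and the cause was not tested. The replicate numbers did not pair the libraries: deviations of same-numbered libraries correlated at -0.104 to 0.088, and 0 of 8 libraries correlated best with their own number. With the replicate block Cldn8 was at -1.48 (adjusted p = 0.00149), Cldn15 at -0.27, Tjap1 lost its call (adjusted p = 0.0805), and 787 genes were called higher and 831 lower over the whole table, beside 986 and 955. The number of genes called over the whole table depended on single libraries, from 455 higher and 392 lower without Smad4Vil-KO replicate 3 to 1380 and 1316 without Smad4Vil-KO;Setd2Vil-KO replicate 5, and DESeq2 called 1461 and 1331. The biological coefficient of variation was 21.2%, and depth was lowest for Cldn7, with 91 to 156 reads per library.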
